A study of Mus musculus with 2 samples.

Results

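The mouse annotation holds many microRNA (miRNA) hairpin genes that carry a placeholder symbol, the letters Gm followed by digits, in place of a miRNA name. Of the 2202 miRNA genes in the deposited tables, 1021 had such a symbol in GENCODE M21 and were taken as members. The other 1181 miRNA genes serve as the comparison. GENCODE marks every miRNA gene in these tables, with either kind of symbol, as an automatic model. The members had 1020 distinct symbols, because Gm24022 stands for a pair of genes.

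The series measured small RNA of under 30 nt in 2 libraries of tissue labelled as a layer of hippocampus, which formed 1 group with no second condition. The donors were female B6CASTF1/J mice, hybrids of the B6 and CAST strains, aged 18 to 20 months and without a treatment in the labels. The labels number the libraries as biological replicates 1 and 2 and give them different biosamples and different animal numbers, which points to separate animals. They also name 1 donor record for both, so this is not certain. Replicate 1 held 2255838 sense counts in miRNA genes and replicate 2 held 4521208, and 36.2% and 47.9% of all reads were set apart as mapping to several places. Levels are given as CPM, the sense count of a gene for each 1000000 sense counts in miRNA genes, and a count of 0 allowed up to 3 counts, that is 1.33 CPM in replicate 1 and 0.664 CPM in replicate 2, for counting error only. Of the genes set as a check of the tissue label, Mir128-1 (12708 CPM) and Mir137 (11037 CPM), both known from neurons, were high and Mir122, known from liver, was at 28.9 CPM. Mir124a-1 (1.88 CPM) and Mir9-1 (13.1 CPM), neural genes with further copies, were low in these unique counts.

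A miRNA is cut from a hairpin, a stretch of RNA that folds back on itself, by the enzymes Drosha and Dicer, and the short product guides Argonaute to matching messenger RNAs. Its seed, bases 2 to 8 of the mature RNA, sets most of that match. The reverse complement of a hairpin can also fold, so a sequence search can place a gene model on either strand of 1 locus. Sequences of repeats, of histone genes and of structured RNAs such as small nucleolar RNAs (snoRNAs) can fold in a similar way.

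The hairpins below are those that the results turn on. They come from the GENCODE M21 transcripts (GRCm38, the same assembly as mm10), and the mature RNAs from RefSeq (GRCm38.p6), all 5′ to 3′ on the gene's own strand. In the first pair of hairpins, capitals mark the mature miRNA that RefSeq places in the gene, and in the mature RNAs they mark the seed. Gm23450 is at chr7:3415066-3415156 (plus strand) and Gm22650 at chrX:146999405-146999509 (plus strand).
Gm23450: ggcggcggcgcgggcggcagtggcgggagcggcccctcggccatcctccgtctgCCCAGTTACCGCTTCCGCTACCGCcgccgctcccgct
mmu-miR-935: cCCAGUUAccgcuuccgcuaccgc
Gm22650: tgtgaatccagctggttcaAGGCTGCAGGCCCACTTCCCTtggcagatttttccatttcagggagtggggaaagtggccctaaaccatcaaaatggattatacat
mmu-miR-3552: aGGCUGCAggcccacuucccu

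The next hairpins are shown because each lies opposite an abundant miRNA. Capitals mark the bases across from the mature miRNA of the other strand, whose own sequence follows with its seed in capitals. Gm25927 is at chr17:17830343-17830459 (minus strand) and Gm24083 at chr9:108568295-108568414 (minus strand).
Gm25927: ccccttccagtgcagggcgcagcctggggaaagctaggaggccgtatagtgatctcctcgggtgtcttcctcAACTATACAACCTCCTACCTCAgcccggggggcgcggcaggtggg
mmu-let-7e-5p: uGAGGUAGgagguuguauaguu
Gm24083: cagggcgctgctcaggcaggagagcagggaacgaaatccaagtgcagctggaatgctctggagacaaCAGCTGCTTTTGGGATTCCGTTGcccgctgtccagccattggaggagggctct
mmu-miR-191-5p: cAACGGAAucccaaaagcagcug

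The last set shows members that lie in other RNAs or have copies. Capitals mark the bases inside the annotated snoRNA gene in Gm47277 (chr8:13876091-13876184, plus strand) and Gm49346 (chr16:23110753-23110858, plus strand). In Gm23873 (chr7:61750468-61750537, minus strand) they mark the 22 bases shared with Mir344d-1. Gm24270 (chr9:56223715-56223771, minus strand) has the same 57 bases as Gm23935 (chr16:11144125-11144181, plus strand). Gm44367 (chr13:21716667-21716804, minus strand) has the same sequence as 7 other members and lies opposite a histone gene.
Gm47277: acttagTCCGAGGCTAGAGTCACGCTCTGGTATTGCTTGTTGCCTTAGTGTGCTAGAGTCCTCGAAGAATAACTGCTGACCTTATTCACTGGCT
Gm49346: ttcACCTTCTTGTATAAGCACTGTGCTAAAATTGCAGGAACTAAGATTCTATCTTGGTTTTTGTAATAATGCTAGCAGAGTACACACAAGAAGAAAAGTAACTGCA
Gm23873: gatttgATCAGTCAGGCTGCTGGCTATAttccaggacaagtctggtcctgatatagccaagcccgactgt
Gm24270: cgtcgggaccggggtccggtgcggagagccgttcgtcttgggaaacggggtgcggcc
Gm44367: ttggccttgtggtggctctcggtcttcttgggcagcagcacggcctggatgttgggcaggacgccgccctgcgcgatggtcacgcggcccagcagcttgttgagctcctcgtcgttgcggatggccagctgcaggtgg

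Few of the Gm-named hairpins held any count. Sense counts were found in 44 of the 1021 members (4.31%) in at least 1 library, against 690 of 1181 other miRNA genes (58.4%) and 33.3% of all miRNA genes. Replicate 1 had counts in 28 members and replicate 2 in 33, and 17 had counts in both. The remaining 977 members had no sense count in either library. Of the 44, 26 held 3 counts or fewer in sum, and 17 of these held a single count. At 1 CPM or more in both libraries there were 10 members (0.979%), against 436 other miRNA genes (36.9%) and 20.3% of all miRNA genes. These differences between the sets are descriptions, since genes are not replicates of a condition. The lowest levels lie at or under the level of 3 counts, so the members between 1 and 3 counts are not told apart from 0.

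**Figure D1:**
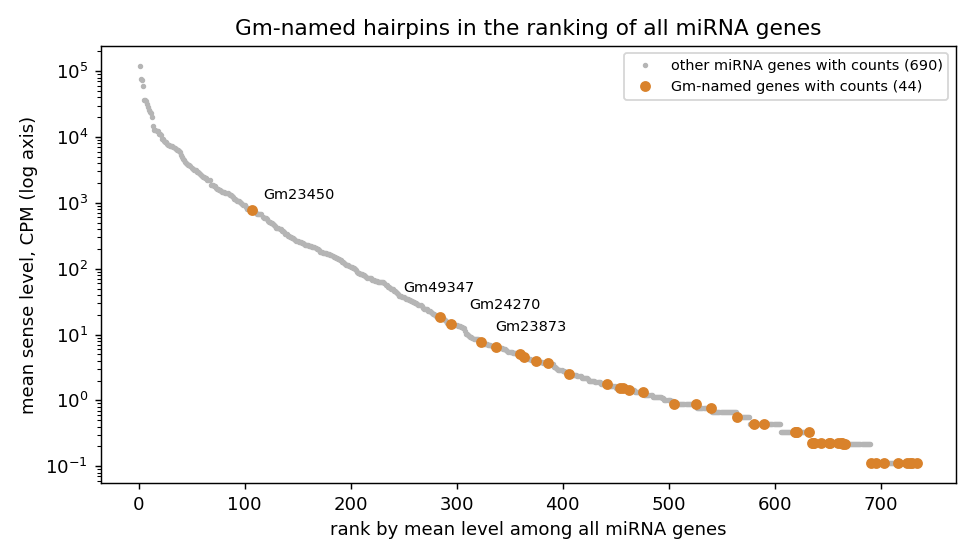
Mean sense level (CPM, log axis) of each miRNA gene with counts against its rank, with the 44 Gm-named genes in orange and the 690 other genes in grey. Gm23450 stands well above the other Gm-named genes, at a mean of 785 CPM, and most of them lie at the low end of the ranking.

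One gene held most of the members' counts. Gm23450 (ENSMUSG00000094210.1), the gene that RefSeq lists with mmu-miR-935, was counted 1985 times in replicate 1 and 3123 times in replicate 2. These counts put it at 880 CPM, with a 95% Poisson interval of 842 to 920, and at 691 CPM, with an interval of 667 to 715. It ranked 103rd and 106th among the 2202 miRNA genes. Its mean was 785 ± 134 CPM (SD, n = 2), and the ratio of replicate 2 to replicate 1 was 0.785 (95% exact interval 0.742 to 0.831). The gene lies on the strand of Cacng8, in an exon of an annotated transcript; Cacng8 encodes an auxiliary subunit of AMPA-type glutamate receptors known from hippocampal neurons. Reads of the short RNA and of the host transcript cannot be told apart in counts per gene.

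All members together held 2211 counts in replicate 1, or 0.0980% (exact binomial interval 0.0940 to 0.102) of the sense counts, and 3421 in replicate 2, or 0.0757% (0.0732 to 0.0782). The mean share was 0.0868% ± 0.0158 (SD, n = 2). Gm23450 made up 89.8% of the members' counts in replicate 1 and 91.3% in replicate 2. Without it, the other 1020 members held 226 and 298 counts, and their mean share was 0.00830% ± 0.00242 (SD, n = 2).

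The mean of the libraries reached 1 CPM in 15 members, and 14 of them lay between 1.33 and 18.4 CPM. Gm49347 (ENSMUSG00000104863.1, chromosome 18, 35557132 to 35557242) had 45 counts in replicate 1 (19.9 CPM) and 76 in replicate 2 (16.8 CPM). It overlaps Snora74a, an H/ACA snoRNA, a class that guides the change of uridine to pseudouridine in other RNAs. The ratio of replicate 2 to replicate 1 was 0.843 (0.575 to 1.25), which includes 1.

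Gm47277 and Gm49346, printed above, also lie in snoRNA genes on the same strand. Gm47277, in an intron of Champ1 and in the snoRNA gene Gm24698, had 19 counts (8.42 CPM) and 20 counts (4.42 CPM) in replicates 1 and 2. Gm49346, in Eif4a2 and in Snora81, had 12 counts (5.32 CPM) and 17 counts (3.76 CPM). Eif4a2 encodes an RNA helicase of translation initiation. Another member, Gm44456, overlaps the position of the tRNA gene n-TStga2 of RefSeq, whose strand the table used does not give, and had 4 and 6 counts (1.77 and 1.33 CPM).

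Gm24270 and Gm23935 had identical hairpins but not the same counts. Gm24270, in an intron of the kinase gene Peak1, had 51 counts in replicate 1 (22.6 CPM) and 30 in replicate 2 (6.64 CPM). Gm23935, opposite an intron of Zc3h7a, had 5 counts (2.22 CPM) and 23 counts (5.09 CPM). The ratio of replicate 2 to replicate 1 was 0.293 (0.180 to 0.470) for Gm24270 and 2.30 (0.853 to 7.73) for Gm23935, and the intervals do not overlap. A read that lies wholly inside the 57 bases and matches them fits all such places, and reads that fit several places are a separate total in the files. Copies of these bases outside annotated miRNA genes, as in other structured RNAs, were not searched, so the source of these reads was not tested. Another member, Gm24245, had the same 57 bases and no count; it was named after its values were seen. Of the 196 members with an identical copy among the members, only these 2 held counts, against 4.31% of all members. For such members a count of 0 can be too low, since reads inside the copies are set apart.

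Gm23873, in an intron of the long noncoding RNA A230057D06Rik, had 29 counts in replicate 1 (12.9 CPM) and 11 in replicate 2 (2.43 CPM). This host also holds 7 named genes of the miR-344 family, whose levels in these unique counts differed widely. Mir344b was at 70.9 and 72.8 CPM, Mir344d-3 at 28.4 and 13.5 CPM, Mir344c at 4.88 and 3.76 CPM and Mir344e at 1.33 and 0.221 CPM. Mir344, Mir344h-1 and Mir344h-2 had no count. RefSeq gives Mir344h-1 and Mir344h-2 the same mature miRNAs, and Gm23873 shares a stretch with Mir344d-1 and Mir344d-2. Reads that fit several places are not in the gene counts, so these values can be too low. Of the other 3 members in the same host, Gm22466 had 1 count and Gm23490 and Gm23917 had none.

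Gm22650, the gene that RefSeq lists with mmu-miR-3552, had 2 counts (0.887 CPM) and 12 counts (2.65 CPM). It lies in an intron of the serotonin receptor gene Htr2c, beside 5 named genes: Mir1298 (229 and 136 CPM), Mir1264 (33.2 and 30.1 CPM), Mir448 (32.8 and 13.0 CPM), Mir764 (27 and 69 counts, a mean of 13.6 CPM) and Mir1912 (1.77 and 0.442 CPM). Gm24627, the member with mmu-miR-1911 in the same host, had no count. RefSeq gave a mature miRNA for 11 members, matched by symbol and position. Of these 11, Gm23450 and Gm22650 were the 2 with sense counts, against 4.31% of all members and 58.4% of other miRNA genes.

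The other 6 of the 15 lay in protein-coding genes on the same strand, and most held few counts. Gm24589, in an intron of Pkd1, the gene of the kidney protein polycystin-1, had 8 and 29 counts (3.55 and 6.41 CPM). Gm26117, in an exon of the brain adhesion receptor gene Adgrb1, had 8 and 20 counts (3.55 and 4.42 CPM), and 91.6% of its bases are G or C. Gm23394, in an exon of Ralgapa1, had 11 counts in replicate 1 and 1 in replicate 2.

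The last 3 of these were near the level of a few counts. Gm27322, in an exon of Smurf2, which encodes a ubiquitin ligase, had 6 and 2 counts. Gm24197, in an exon of the kinase gene Mast1, had 6 and 1, and Gm27920, in an exon of the deubiquitinase gene Usp15, had 2 and 8. Just inside the threshold of 1 CPM stood Gm27920 at 1.33 CPM. Just outside stood Gm47286 (0.887 CPM, 4 and 0 counts), Gm25745 (0.885 CPM, 0 and 8 counts) and Gm47295 (0.774 CPM, 0 and 7 counts).

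**Figure D2:**
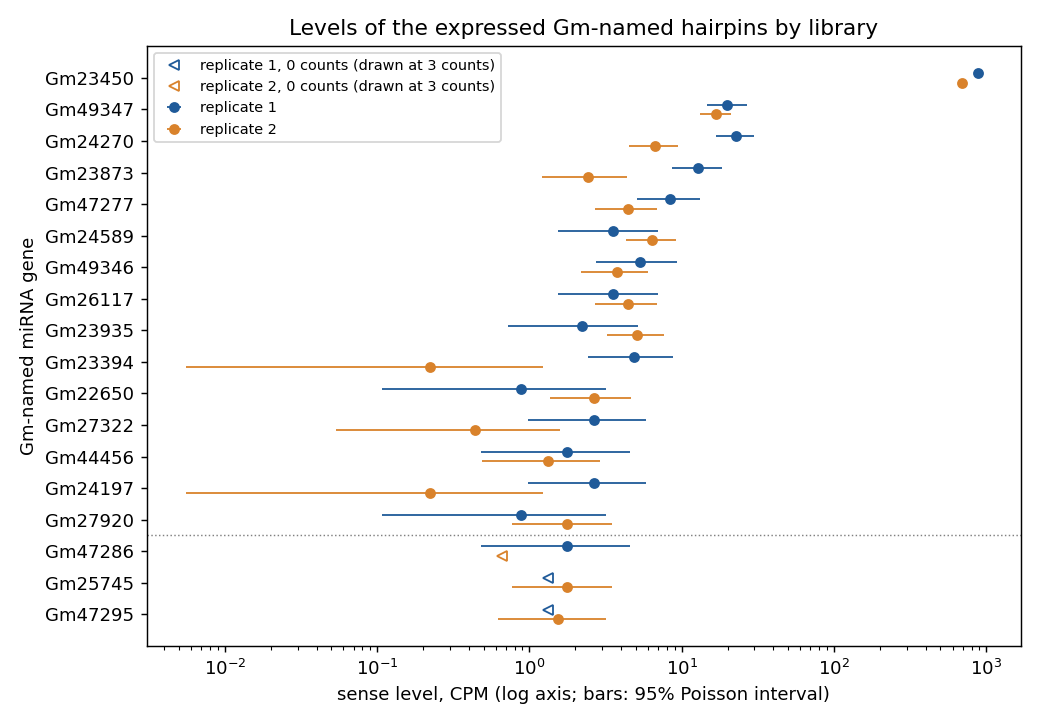
Sense level (CPM, log axis) of the 15 members whose mean reached 1 CPM and, under the dotted line, the 3 just below it, in replicate 1 (blue) and replicate 2 (orange). Points are levels, bars are 95% Poisson intervals, and open triangles mark 0 counts at the level of 3 counts; the libraries' intervals stand apart for Gm23450, Gm24270, Gm23873 and Gm23394.

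The ratio of the libraries was past 2-fold for 7 of the 15 members. Among the 495 miRNA genes whose mean reached 1 CPM, 25.9% were past 2-fold. Among the 185 genes between 1 and 10 CPM, where 12 of the 15 members lie, 40.5% were, and 6 of these 12 members were. In replicate 2, 2 members were higher (7.68% of the 495 genes) and 5 were lower (18.2%). With 1 library on each side the ratio has no replicate check, and its interval compares these libraries only. The 5 lower members were Gm24270, Gm23873, Gm23394, Gm27322 and Gm24197, and their intervals lay below 1. Gm23935 and Gm22650 were the higher ones, and both intervals included 1. For Gm23394 the ratio was 0.0454 (0.00105 to 0.312) and for Gm23873 it was 0.189 (0.0853 to 0.390). The median log2 ratio, with 0.5 counts added to each library, was -0.47 over the 15 members and -0.19 over all 495 genes. With DESeq2 size factors, which raise every log2 ratio by 0.19, 4 members were higher and 5 lower.

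**Figure D3:**
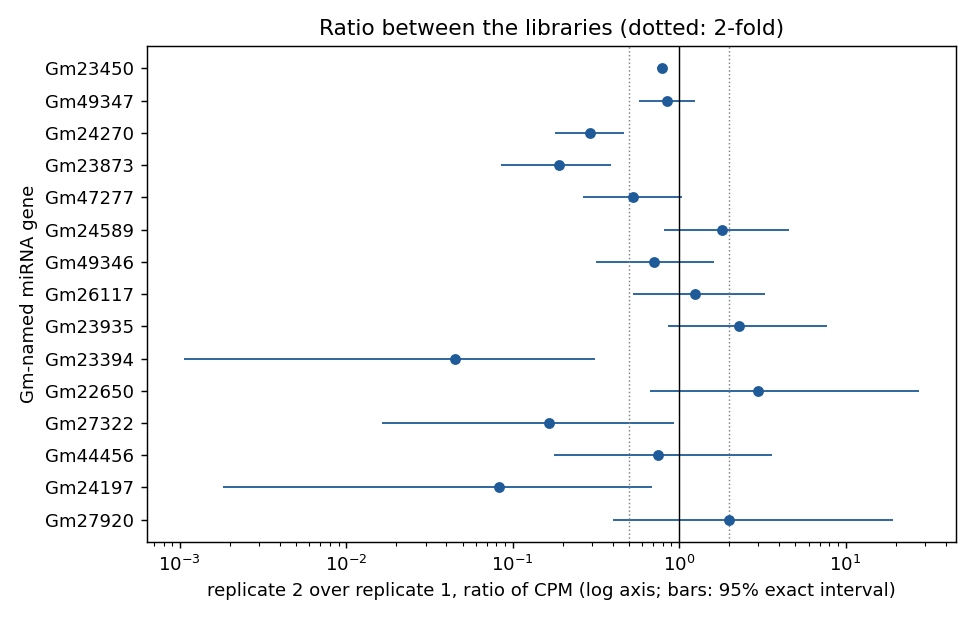
Ratio of CPM, replicate 2 over replicate 1 (log axis), for the 15 members, with 95% exact intervals; the solid line is 1 and the dotted lines are 2-fold. Gm23450 has the narrowest interval (0.742 to 0.831), and 6 intervals, all on the lower side, exclude 1. The share of all 495 genes whose intervals exclude 1 is not given here. Their median log2 ratio was also below 0 (-0.19), so the lower side is not particular to the members.

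Some members marked the far strand of abundant miRNAs. In all, 9 members overlapped a named miRNA gene on the opposite strand, by 61 to 93 bases, and none overlapped one on its own strand. All 9 had a sense count of 0 in both libraries, as did 95.7% of all members, so these zeros are near that share. In all 9 the antisense count equalled the sense count of the named gene in both libraries. Each named gene lies wholly inside its member, so its sense reads fall to the member as antisense by position alone. The members were longer than their partners in all 9 pairs (80 to 120 bases against 61 to 93), and the added bases brought no further antisense count. At this depth no read of these loci was assigned to the member's strand.

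Gm25927 lies opposite Mirlet7e, a let-7 gene, in an intron of Spaca6 on the other strand. Its antisense count was 45574 in replicate 1 and 121821 in replicate 2, the reads that put Mirlet7e at 23574 ± 4767 CPM (SD, n = 2). Gm24083 lies opposite Mir191 and had 35479 and 61733 antisense counts, with Mir191 at 14691 ± 1466 CPM. How far a sense count of 0 limits the member's strand depends on the depth of the pair. At 3 counts, it allows up to 0.00658% of the count of Mirlet7e in replicate 1 and 0.00246% in replicate 2 for Gm25927. For Gm44322 it allows 3.85% and 0.721% of the count of Mir539, and for Gm25641 21.4% and 3.33% of that of Mir9-1.

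Gm25301 lies opposite Mir378a, in an intron of Ppargc1b, which encodes a coactivator of mitochondrial genes. It had 6441 and 16216 antisense counts. Gm24111 lies opposite Mirlet7f-1 and had 675 and 1296. Gm25641 lies opposite Mir9-1, and RefSeq lists it with mmu-miR-9b; it had 14 and 90 antisense counts and no sense count.

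The other 4 of these pairs lie on chromosome 12 between 109711779 and 109743237, in the imprinted Dlk1-Dio3 region, whose miRNAs come from the maternal chromosome. The members Gm25252 (opposite Mir376a, 4460 and 11026 antisense counts), Gm24321 (Mir409, 2932 and 5934), Gm25750 (Mir380, 715 and 985) and Gm44322 (Mir539, 78 and 416) all had 0 sense counts. Outside the 9 pairs, 5 members had antisense counts, and none of the 5 had more than 2 in sum; Gm24970 had 1 in each library.

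The pairs bear on the counts without strand. There, both genes of each of the 9 pairs read 0 in both libraries. Each named gene lies wholly inside its member. Reads that fit both genes are set apart as ambiguous there, so the 0 of the named gene follows from the positions. The 9 named partners held 96368 sense counts in replicate 1 and 219517 in replicate 2, that is 4.27% and 4.86% of all sense counts. That sum equals 53.5% and 52.4% of the reads the files set apart as ambiguous without strand. The antisense counts of the members, nearly all of them these same reads, made up 53.5% and 52.4% of all antisense counts in miRNA genes. Of the 23 pairs in which 2 named miRNA genes overlap on opposite strands, 20 held counts and 6 held counts on both strands. In Mir24-1 (70 and 117) with Mir3074-1 (14 and 29) the lower strand held more than 3 counts in both libraries. In the other 5 pairs the lower strand held at most 7 counts in a library: Mir3065 had 7 and 1, Mir3107 had 4 and 0, Mir129b had 1 and 2, Mir374c had 1 and 1, and Mir3074-2 had 1 and 0.

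**Figure D4:**
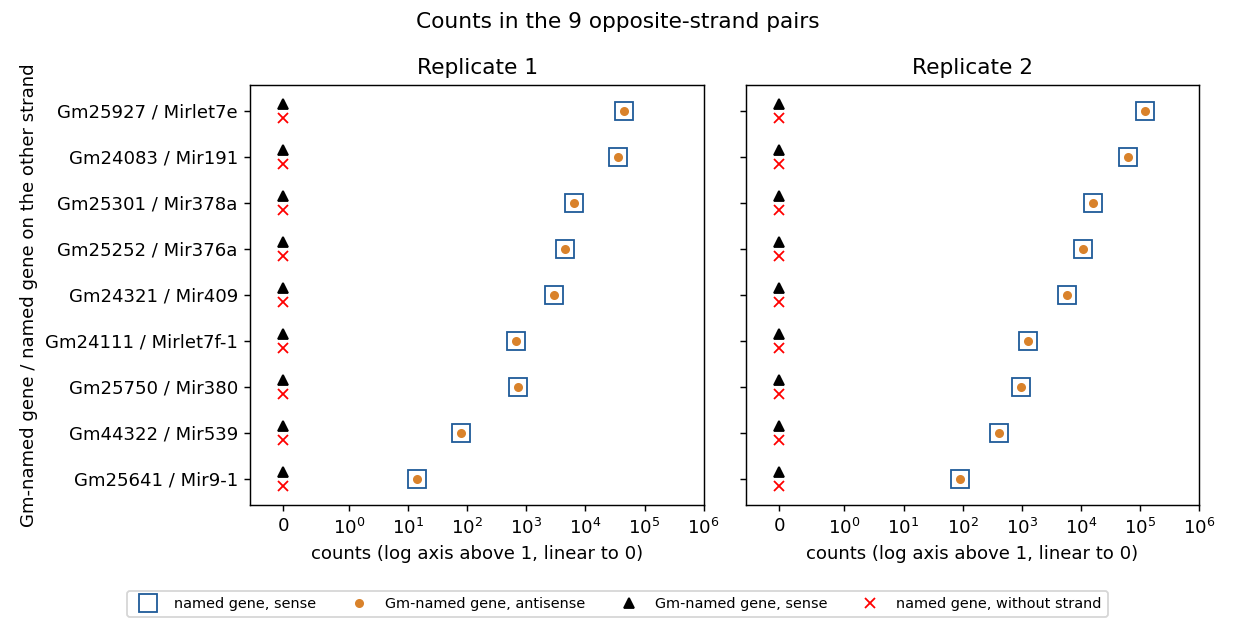
Counts (log axis above 1, linear to 0) in the 9 opposite-strand pairs, 1 panel per library. Orange points, the antisense counts of the Gm-named genes, fall inside the blue squares, the sense counts of the named genes, while the sense counts of the Gm-named genes (triangles) and the counts of the named genes without strand (crosses) are all at 0.

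By position, 374 of the 1021 members lay on the strand of another, longer gene (36.6%), 215 lay only opposite one (21.1%) and 432 had no host (42.3%). Of the 131 members in an exon of a same-strand host, 22 held counts (16.8%). Of the 243 in introns only, 9 did (3.70%), as did 6 of the 215 that had only an opposite-strand host (2.79%) and 7 of the 432 without a host (1.62%). An exon call here means overlap with any annotated transcript of the host. Protein-coding genes were hosts to 289 members, 28 of them with counts (9.69%), and pseudogenes to 53, none of them with counts, against 4.31% of all members. Counts per gene do not separate a hairpin in an exon from the host transcript, and the part of the host in these counts was not tested.

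The host with most members was Sfmbt2, an imprinted gene with a long run of related miRNA hairpins in an intron, which held 48 members. Of these, Gm25263 had 1 count and the other 47 had none. Opposite exons of H2A histone genes lay 21 members, such as Gm44367, all with 0 counts. Since only 4.31% of all members held counts, values of 0 or 1 in classes of this size are near that share. Many of these hairpins share sequence with others, and reads that fit several places are not in the gene counts.

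Some members lie inside annotated genes of other structured RNAs. Members that only share sequence with such RNAs were not searched for. Of 21 members on the strand of an annotated small RNA gene, 7 held counts (33.3%), against 4.31% of all members. By class, 3 of 9 in snoRNA genes, 3 of 8 in genes of the class misc_RNA, which holds 7SL RNAs, and 1 of 4 in 5S rRNA genes held counts. The 3 in snoRNA genes, Gm49347, Gm47277 and Gm49346, held 189 counts, and all 21 held 200, or 38.2% of the members' counts other than those of Gm23450. Gm47295, in Rn7s1, which encodes the 7SL RNA of the signal recognition particle, had 0 and 7 counts, and Gm47285, in the 5S rRNA gene n-R5s64, had 2 and 0. Reads of the snoRNA and of the hairpin model cannot be told apart in these files.

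Most members resembled other hairpins in sequence. A stretch of 20 bases, on either strand, was shared with another hairpin at another place by 824 members (80.7%), against 263 other miRNA genes (22.3%). Among the members that shared such a stretch 19 of 824 held counts (2.31%), and among those that shared none 25 of 197 did (12.7%). For the other miRNA genes these shares were 44.5% and 62.4%. Reads that fit several places are outside the gene counts, so for the 824 members a count of 0 can be too low. For the 197 without a shared stretch, copies elsewhere in the genome were not examined.

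The shared stretches tied the members into families. The largest family had 191 members beside 78 other genes, among them Mir466 and Mir297b, and its members held 4 counts in all, in 2 genes. The next families, of 99 members with Mir680-1 to Mir680-3, of 92 with genes such as Mir706 and Mir1195, and of 56 with Mir3471-1 and Mir3471-2, held none. Among all members that shared a stretch only 2.31% held counts, so at that share each such family would hold few genes with counts. Whether the families differ from that share was not tested. The family that holds the members opposite H2A genes had 24 members, 21 of them opposite such a gene. The 1021 members had 872 distinct hairpin sequences, and the most copied one occurred 27 times. Members were longer than the other miRNA genes (median 104 against 81 bases), and the median G and C content was 50.5% against 50.9%.

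**Figure D5:**
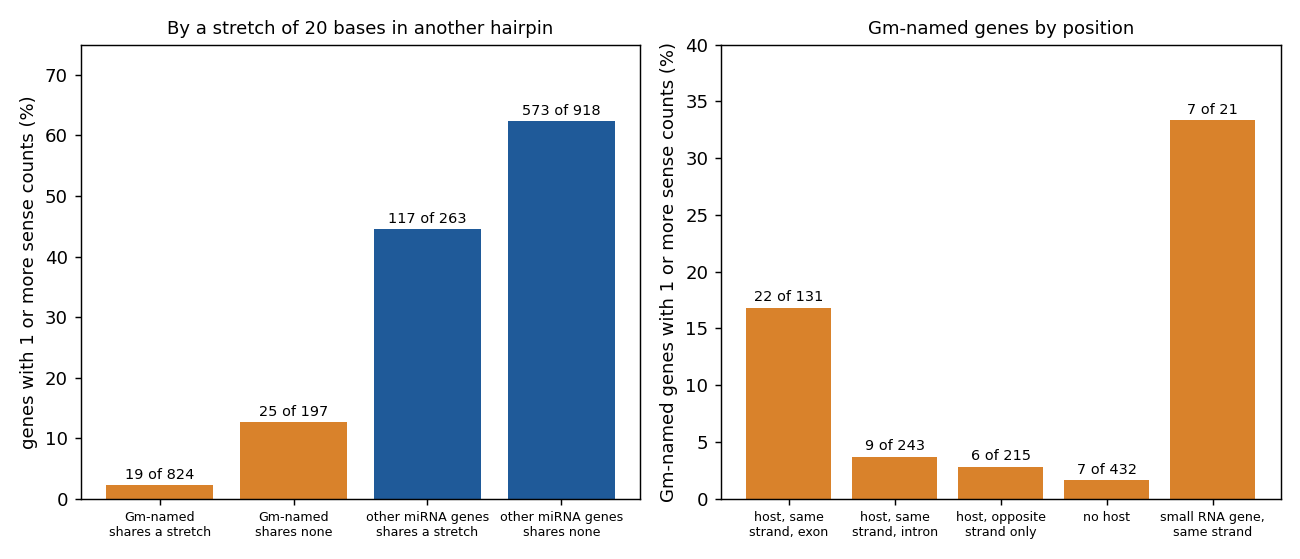
Share of genes with 1 or more sense counts (%), on the left for Gm-named (orange) and other miRNA genes (blue) with and without a stretch of 20 bases shared with another hairpin, and on the right for Gm-named genes by position. Numbers over the bars are genes with counts of all genes in the class; the small RNA class overlaps the other 4 classes. Gm-named genes lie below the other genes in both classes on the left (2.31% and 12.7% against 44.5% and 62.4%).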

How the data were processed

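The authors deposited 1 table of raw counts per library, in which a miRNA gene has 3 values: unstranded, sense and antisense. Above the genes stand 4 totals of reads in no gene. Notes deposited beside the tables name mm10 and GENCODE M21. How reads were aligned and counted is not given in the sources used here. Symbols, positions, hosts and hairpins came from GENCODE M21 and mature miRNAs from RefSeq. The 2 libraries formed 1 group.

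Sense counts were scaled to CPM on the gene sum without those totals, a depth of 2255838 and 4521208. Intervals are exact 95% Poisson, Clopper-Pearson or conditional binomial intervals (scipy 1.17.1); reads without molecular identifiers make them cover counting error only. No p-values were computed, since there was no second condition. The Poisson and ratio intervals and the search for shared stretches were tested on simulated data. Alternatives were counts without strand, each library alone, other thresholds, edgeR 4.0.16 TMM factors and DESeq2 1.42.0 size factors. Text names members with a mean of 1 CPM or more, the 3 just below, the 10 with most antisense counts and those opposite miRNAs of 100 CPM or more; any other gene was picked with its values in view. The members and lists were chosen with earlier results of these data known.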

Additional observations from a re-analysis of the deposited data

How the results depend on the processing

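The number of members with counts, 44, came to 18 when more than 3 counts in sum were required, and to 28 and 33 in single libraries; without strand it was 48. The number at 1 CPM in both libraries, 10, came to 2 at 10 CPM and 1 at 100 CPM. The mean share of counts, 0.0868%, was 0.00830% without Gm23450, an alternative chosen after seeing the data, and 0.0757% and 0.0980% in single libraries. The number of members past 2-fold between the libraries, 7, was 27 with no filter on low values and 0.5 counts added, and 1 among members at 10 CPM or more, where fewer members enter. The 27 rests on a filter and added counts changed together, and the added counts decide which members with a single count pass. TMM gave 8 and DESeq2 size factors 9, and they raise every log2 ratio by 0.12 and 0.19. The counts of hosts and shared stretches stayed within 1.5 times under the alternatives run. For the opposite-strand pairs the only alternative was an overlap of 20 bases or more. The smallest overlap was 61 bases, so that count could not change. Under counts without strand, TMM and DESeq2 size factors, the levels of the 15 members stayed within 1 SD, an SD from 2 libraries. These members had the same counts with and without strand, so only the depth changed there. TMM and DESeq2 size factors shift the 2 libraries in opposite directions, so a mean of both moves little. These alternatives therefore say little about stability. With 2 libraries a single one always lies within 1 SD of their mean, so leaving one out says nothing about stability; without replicate 1, Gm23873 went from 7.64 to 2.43 CPM, Gm23394 from 2.55 to 0.221 and Gm24197 from 1.44 to 0.221. Depth limits the members at 3 counts or fewer. For the 977 without counts, 1.33 and 0.664 CPM cover counting error only, and are no bound for the 805 of them with 20 bases that also occur in another hairpin, since reads that fit several places are not in the gene counts. No paired analysis was possible because the libraries form 1 group.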

Other observations

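The members lay on 21 chromosomes, with most on chromosome 2 (114), chromosome 7 (70) and chromosome 1 (67). Of the 11 members with a mature miRNA in RefSeq, 9 had no sense count in either library, against 95.7% of all members. Among these 9 are Gm24195 (mmu-miR-1271), in an intron of Arl10, and Gm24572 (mmu-miR-3618), in an exon of Dgcr8. Dgcr8 is the gene of the RNA-binding partner of Drosha. Neither shares a stretch of 20 bases with another miRNA hairpin at another place.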
